A study of Rattus norvegicus with 8 samples.

Results

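Transcripts of the mitochondrial genome were examined together with the nuclear genes that transcribe, copy, process and induce them, in cervix of pregnant rats after a bacterial stimulus. The set held 37 genes of the 29884 gene symbols in the counts table, the 13 protein genes of the mitochondrial genome and 24 nuclear genes. Members were chosen by gene function, with the difference between LPS and PBS in these same libraries already known, in particular the lower share of counts from the mitochondrial genome. Every LPS against PBS value of a member below is therefore a description: the calls are printed with their background and nothing is supported with them. All 37 had a row in the table and passed the filter on low counts, which left 16117 genes.

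Wild-type Sprague-Dawley rats received lipopolysaccharide (LPS), a cell wall component of Gram-negative bacteria, by the intraperitoneal route at 100 µg/kg on gestational day 17. The control dams received phosphate-buffered saline (PBS) in equal volume, and cervical tissue was taken from both groups 12 hours later. Each group held 4 libraries, described in the series as biological replicates, and the series presents LPS treatment as a model of preterm birth. The age of the animals is not given in the sources used here.

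Total counts ranged from 33191039 to 40634384 per library, and 3 counts corresponded to 0.0734 to 0.0899 CPM (counts scaled to library size by the trimmed mean of M values). These floors cover counting error only. Both epithelial and smooth muscle markers of cervix were present, with summed levels of 3002 to 8494 CPM for squamous epithelium (4 of 5 markers in the table) and 3184 to 9616 CPM for smooth muscle (6 of 6). PBS replicate 4 was the shallowest library and held less of the smooth muscle markers than the other PBS libraries. Values with PBS replicate 1 and LPS replicate 2 both left out, a choice made after the data were seen, are given where a call ended.

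The mitochondrial genome is a small circle, present in many copies per cell, that encodes subunits of respiratory complexes I, III and IV and of the ATP synthase (complex V). Both strands are transcribed by the polymerase Polrmt with Tfam and Tfb2m into long precursors. These are cut at the tRNAs, polyadenylated, held stable by Lrpprc and Slirp, and degraded by Supv3l1 and Pnpt1. All other subunits of these complexes come from nuclear genes, many of which respond to the coactivator PGC-1alpha (Ppargc1a) and the factors Nrf1 and GABP.

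After LPS, transcripts of the mitochondrial genome were less abundant. They made up 7.75, 7.15, 5.90 and 5.69% of all counts in PBS replicates 1 to 4 and 5.11, 4.33, 4.40 and 4.99% in LPS replicates 1 to 4. Each PBS library lay above each LPS library, although the gap between PBS replicate 4 and LPS replicate 1 was small against the spread within PBS. The mean in LPS was 0.71 of that in PBS. Of the 13 genes, 9 were lower and 0 higher at an adjusted p under 0.05 with edgeR's quasi-likelihood test, where 7.45% of all genes tested were lower and 16.9% changed in either direction. Before adjustment, 12 were lower and 0 higher with p under 0.05. DESeq2 called 13 lower and limma-voom 9, and neither called one higher. It was 4 after removal of PBS replicate 2, and likewise when PBS 1 and LPS 2 were left out together. In 12 of the 13 genes the groups did not overlap, against 10.5% of all tested genes that were lower without overlap. The median log2 fold change of the 13 was -0.59, beside 0.01 for all genes tested.

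**Figure D1:**
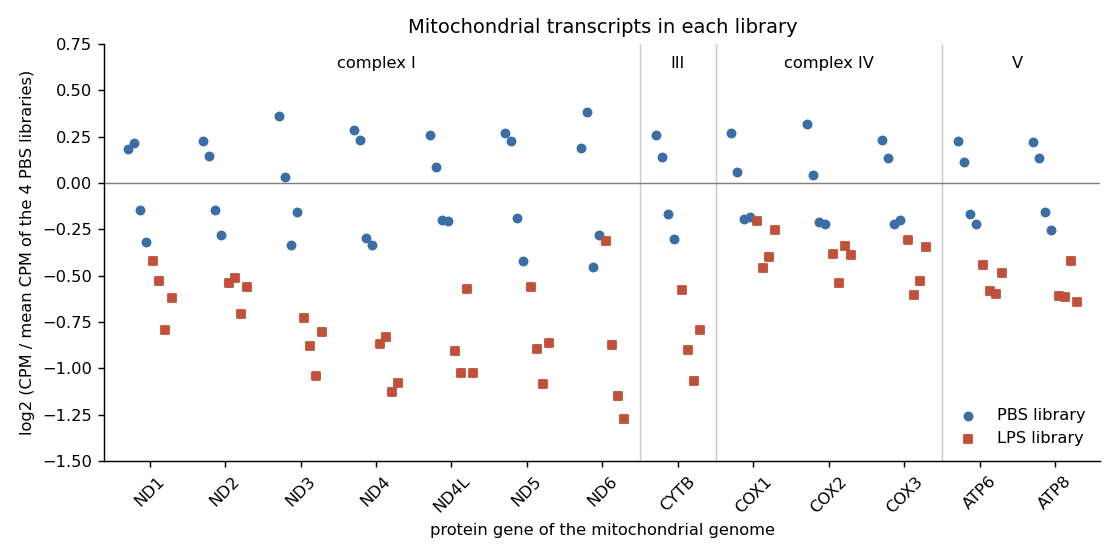
Level of each protein gene of the mitochondrial genome in each library, as log2 of CPM over the mean of the 4 PBS libraries (y axis), by gene and respiratory complex (x axis); circles are PBS and squares LPS libraries, in replicate order. The LPS squares of the complex I genes and CYTB reach lower than those of COX1, COX2 and COX3, and within PBS replicates 1 and 2 lie above replicates 3 and 4 for all 13 genes.

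Complex I, which takes electrons from NADH, has 7 mitochondrially encoded subunits. 6 of them fell and ND6 did not pass the test. ND4, a subunit of the proton-pumping membrane arm, stood at 5614, 5414, 3761 and 3663 CPM in the PBS libraries and at 2528, 2594, 2112 and 2185 CPM in the LPS libraries. The PBS libraries split into a higher and a lower pair, and all 4 LPS libraries lay below the lower pair. Its log2 fold change was -0.97 (SE 0.17), the most negative of the 13. ND4L, translated from the same messenger as ND4, had 793, 704, 576 and 575 CPM in PBS and 353, 325, 445 and 325 CPM in LPS. LPS replicate 3 was high for ND4L and low for ND4, so that counts of ND4L per 100 of ND4 were 21.1 there and 12.5 to 14.9 in the other LPS libraries, against 12.996 to 15.7 in PBS. The log2 fold change of ND4L was -0.87 (SE 0.15).

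ND3 had 1048, 834, 646 and 731 CPM in PBS and 492, 443, 396 and 466 CPM in LPS, with no overlap (-0.86, SE 0.15). ND5, the largest pumping subunit, had 1893 to 3060 CPM in PBS and 1197 to 1718 CPM in LPS (-0.84, SE 0.18). ND1 and ND2 fell less, by 0.59 (SE 0.15) and 0.58 (SE 0.13) on the log2 scale. ND1 ranged from 3205 to 4628 CPM in PBS and from 2303 to 2976 CPM in LPS, and ND2 from 2974 to 4227 and from 2213 to 2534 CPM. ND1 was no longer called after removal of PBS 1, PBS 2, LPS 2, LPS 3 or LPS 4. ND2 was no longer called after removal of PBS 2 or LPS 3, and ND5 after removal of PBS 2. With PBS 1 and LPS 2 left out together, ND1, ND2 and ND5 were not called.

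ND6 is the protein gene read from the opposite strand to the other 12. It had 613, 724, 406 and 377 raw counts in the PBS libraries and 447, 293, 244 and 232 in the LPS libraries, or 15.7, 17.9, 10.0045 and 11.3 CPM against 11.04, 7.5, 6.18 and 5.67 CPM. LPS replicate 1 lay between PBS replicates 3 and 4, so this was the gene of the 13 whose groups overlapped. Its log2 fold change of -0.85 (SE 0.26) resembled those of ND3 and ND5 in size, with the largest standard error of the 13. It did not pass the test, but did with DESeq2, with the replicate number as a block and without LPS replicate 1. Per 1000 counts of ND5, whose gene lies next to it, ND6 had 4.49 to 6.04 counts in PBS and 4.07 to 6.43 in LPS. The strand setting of the counting is not given, so reads from the strand opposite ND6 cannot be told apart from ND6 itself.

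CYTB, the catalytic cytochrome b of complex III, had 6265, 5788, 4663 and 4260 CPM in PBS and 3513, 2810, 2499 and 3021 CPM in LPS. The lowest PBS library stood above the highest LPS library, and the log2 fold change was -0.82 (SE 0.16). Its call was held in each fit that left out a library.

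The complex IV subunits, which form the catalytic core of cytochrome c oxidase, showed the smallest differences, and 0 of 3 passed the test with edgeR or limma-voom, in either direction. At an unadjusted p under 0.05, 2 were lower, and DESeq2 called all 3 lower. COX1 had 26600, 22936, 19238 and 19421 CPM in PBS and 19122, 16021, 16729 and 18491 CPM in LPS, so that PBS replicate 3 and LPS replicate 1 nearly touched (-0.33, SE 0.15). COX2 had 5846 to 8497 CPM in PBS and 4688 to 5380 CPM in LPS (-0.41, SE 0.14). COX3 had 7957 to 10887 CPM in PBS and 6108 to 7501 CPM in LPS (-0.44, SE 0.15). For these 3 genes the groups did not overlap.

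The ATP synthase subunits ATP6, part of the proton channel, and ATP8 lie on 1 messenger with overlapping reading frames. ATP6 had 5615 to 7645 CPM in PBS and 4322 to 4810 CPM in LPS (-0.53, SE 0.13), and ATP8 had 284 to 395 CPM in PBS and 217 to 253 CPM in LPS (-0.57, SE 0.12). Both fell. The call of ATP6 was lost in 6 of the 8 fits that left out a library, all but those without PBS replicate 3 or 4, with the replicate block, and with PBS 1 and LPS 2 left out together. ATP8 was not called after removal of PBS replicate 2 or of that pair.

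The make-up of the mitochondrial transcripts also differed between the groups. Complex I genes held 23.1 to 25.8% of the counts of the 13 genes in PBS and 19.5 to 22.7% in LPS, and CYTB held 7.53 to 8.05% and 5.64 to 6.89%. Complex IV genes held 55.8 to 58.97% in PBS and 60.6 to 64.4% in LPS. None of these ranges overlapped. The share of complex V genes, 10.1 to 10.6% in PBS and 9.87 to 10.4% in LPS, overlapped. Within a library these shares do not depend on the scaling to library size, and they add up to the whole, so that a lower share of some genes is a higher share of others.

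**Figure D2:**
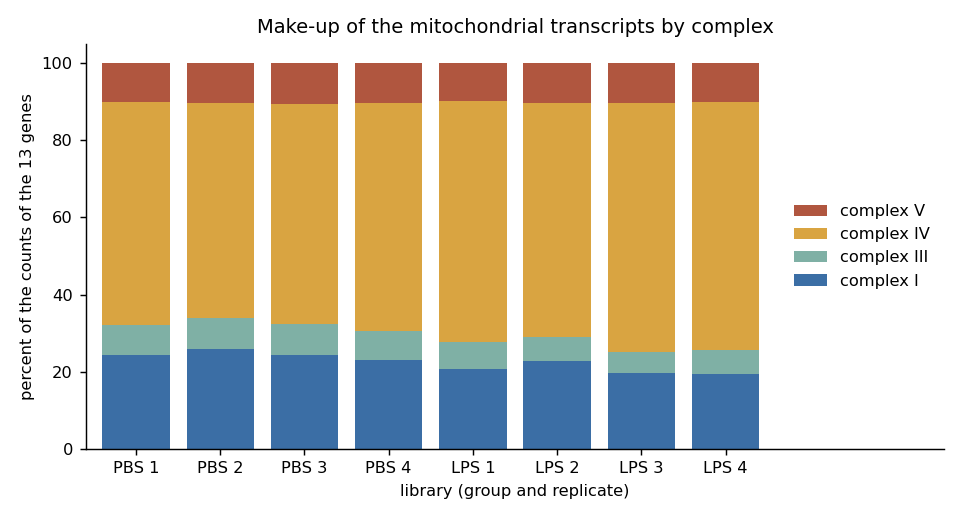
Percent of the counts of the 13 mitochondrial protein genes (y axis) held by the genes of complexes I, III, IV and V in each of the 8 libraries (x axis). Complex IV makes up at least 60.6% in the LPS libraries and at most 58.97% in the PBS libraries, and complexes I and III take less in LPS.

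The same counts can be written as ratios of genes within a library, which adds no separate evidence of the shift. ND4 and COX1 had the most and the least negative log2 fold change of the 13, so their ratio was picked from these data. Per 100 counts of COX1, ND4 had 21.1, 23.6, 19.5 and 18.9 counts in PBS and 13.2, 16.2, 12.625 and 11.8 counts in LPS, with no overlap. Per 100 counts of the 3 complex IV genes, the 7 complex I genes had 39.1 to 46.2 counts in PBS and 30.4 to 37.4 counts in LPS. LPS replicate 2 was the LPS library nearest to PBS in both ratios, although its share of mitochondrial counts was the lowest of the 8 libraries. By gene, COX1 took 33.2 ± 1.01% of the 13 genes' counts in PBS and 37.4 ± 0.881% in LPS (mean ± SD, n = 4 per group). ND4 took 6.89 ± 0.505% and 5.03 ± 0.584%, and ND3 and CYTB were likewise lower in all 4 LPS libraries than in any PBS library. The other 9 shares overlapped between the groups.

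Within PBS the mitochondrial genes varied more than the nuclear members, with a median coefficient of variation of 17.5% for the 13 and 8.22% for the 24, where the median of all genes tested was 14.4%. Within LPS the medians were 9.86%, 11.3% and 15.9%. PBS replicates 1 and 2 held the most mitochondrial transcripts and replicates 3 and 4 the least. Replicate numbers carry no order, and the labels name nothing that sets these pairs apart.

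Of the 24 nuclear members, 3 were higher (Polg, Slirp and Pnpt1) and 0 lower, where 9.49% of all genes tested were higher. Before adjustment, 3 were higher and 2 lower with p under 0.05, and DESeq2 and limma-voom each called 3 higher and 0 lower. The median log2 fold change was 0.11, with 16 of 24 above 0. Of the 3 calls, 2 were made after removal of PBS 1 or LPS 2, 1 after removal of PBS 4, LPS 1, LPS 3 or LPS 4, and 0 after removal of PBS 2 or PBS 3. With PBS 1 and LPS 2 left out together, 2 were called.

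**Figure D3:**
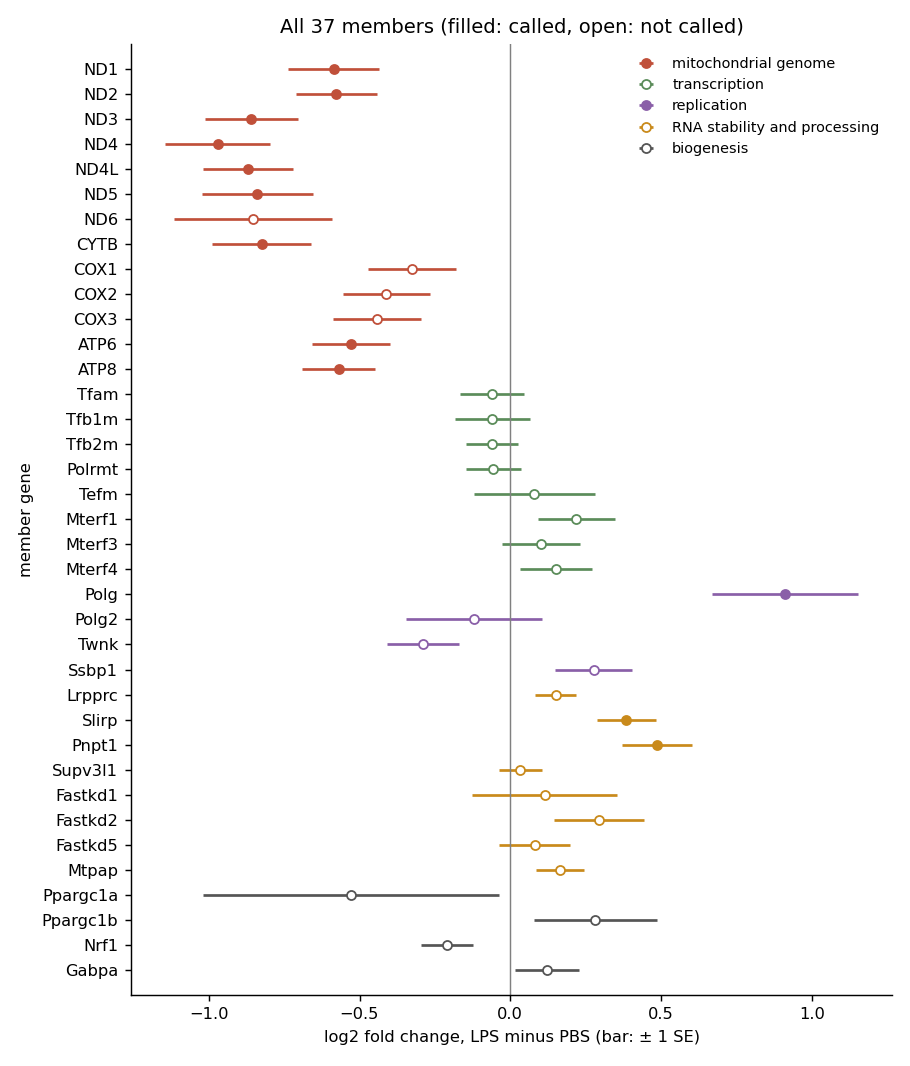
Log2 fold change of LPS minus PBS (x axis, bars ± 1 SE) for all 37 members (y axis), coloured by role, with filled points for genes called at an adjusted p under 0.05. The 13 mitochondrial genes lie between -0.97 and -0.33, and the 8 transcription genes between -0.06 and 0.22.

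Of the 8 genes listed under mitochondrial transcription, 0 were called in either direction by edgeR, DESeq2 or limma-voom. At an unadjusted p under 0.05 there were 0 in either direction. Tfam, which packages the genome and starts transcription, had 35.7, 40.2, 44.1 and 45.4 CPM in PBS and 40.95, 37.04, 35.7 and 44.99 CPM in LPS. The groups lay over each other, and the log2 fold change was -0.06 (SE 0.11). The polymerase Polrmt had 17.2 to 19.8 CPM in PBS and 16.2 to 19.3 CPM in LPS (-0.06, SE 0.09). Its initiation partner Tfb2m had 24.4 to 26.3 CPM in PBS and 20.9 to 25.3 CPM in LPS (-0.06, SE 0.09). Tfb1m, which methylates the small ribosomal RNA of the organelle, had a value of -0.06 (SE 0.12), and the elongation factor Tefm of 0.08 (SE 0.20).

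The mTERF proteins bind mitochondrial nucleic acids at sites of termination and in ribosome assembly. Mterf1 had 8.71 to 11.4 CPM in PBS and 10.1 to 12.3 CPM in LPS (0.22, SE 0.13), Mterf4 9.83 to 11.2 and 10.4 to 13.6 CPM (0.15, SE 0.12), and Mterf3 12.1 to 16.6 and 13.5 to 18.0 CPM (0.10, SE 0.13). In each of the 8 transcription genes the groups overlapped.

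Among the 4 replication genes, Polg rose. It encodes the catalytic subunit of the polymerase that copies the mitochondrial genome. Its levels were 45.7, 49.5, 50.3 and 52.6 CPM in PBS and 79.8, 61.4, 82.5 and 148 CPM in LPS. The PBS libraries lay close together, while the LPS libraries were spread, with replicate 4 far above the rest. The log2 fold change was 0.91 (SE 0.24), or 0.59 without LPS replicate 4. Removal of LPS 1, LPS 3 or a PBS library, whichever of the 4, ended the call. In RefSeq the span of Polg overlaps that of Fanci, a DNA repair gene, which had 5.29 ± 0.951 CPM in PBS and 6.41 ± 1.54 CPM in LPS (n = 4 per group) and was not called. The accessory subunit Polg2 had 3.53 to 4.65 CPM in PBS and 2.76 to 4.87 CPM in LPS (-0.12, SE 0.23).

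Twnk, the helicase Twinkle, had 18.5, 16.8, 18.2 and 16.2 CPM in PBS and 12.8, 16.1, 12.3 and 15.97 CPM in LPS. The groups did not overlap, but PBS replicate 4 and LPS replicate 2 differed by less than the spread within either, and the value of -0.29 (SE 0.12) was not called. Ssbp1, which coats single-stranded mitochondrial DNA, had 12.7 to 13.3 CPM in PBS and 13.3 to 19.6 CPM in LPS (0.28, SE 0.13, not called), with its highest level in LPS replicate 3 and a value of 0.16 without that library.

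Of the 8 genes of RNA stability and processing, 2 rose and 0 fell, also with DESeq2 and limma-voom, and 0 were lower at an unadjusted p under 0.05. Pnpt1, the exonuclease that degrades RNA in the organelle and is known as a gene inducible by type I interferon, had 31.7, 28.2, 31.3 and 34.2 CPM in PBS and 41.03, 36.8, 52.1 and 45.6 CPM in LPS. All LPS libraries were above all PBS libraries, and the log2 fold change was 0.49 (SE 0.12). Removal of PBS 2, PBS 3 or LPS 4 ended this call. Its partner, the helicase Supv3l1, had 22.0 to 23.7 CPM in PBS and 22.2 to 24.6 CPM in LPS (0.03, SE 0.07), and these ranges overlapped almost wholly.

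Slirp had 16.0, 13.1, 15.2 and 14.2 CPM in PBS and 18.3, 18.6, 21.1 and 18.3 CPM in LPS, with no overlap (0.38, SE 0.10). Its call was lost in 7 of the 8 fits that left out a library, all but that without PBS replicate 1, with the replicate block, and with PBS 1 and LPS 2 left out together. The span of Slirp overlaps those of Snw1, which was called higher by 0.24 on the log2 scale, and Alkbh1. Lrpprc, which binds mitochondrial messengers together with Slirp, had 63.4, 61.3, 59.0 and 59.8 CPM in PBS and 72.96, 64.2, 64.5 and 68.6 CPM in LPS. The groups did not overlap, and the value of 0.15 (SE 0.07) was not called. Mtpap, the poly(A) polymerase of the organelle, had 18.6 to 21.2 CPM in PBS and 21.8 to 24.4 CPM in LPS, again without overlap and not called (0.16, SE 0.08).

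The FASTKD proteins bind mitochondrial RNA and take part in its processing. Fastkd2 had 7.995 to 10.5 CPM in PBS and 9.76 to 13.7 CPM in LPS (0.30, SE 0.15). Fastkd1 had 7.33 to 13.6 CPM in PBS and 7.58 to 14.3 CPM in LPS (0.11, SE 0.24), and Fastkd5 7.77 to 9.65 and 8.43 to 9.71 CPM (0.08, SE 0.12). None of the 3 was called, and in each the groups overlapped. All 8 genes of this role had a log2 fold change above 0.

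Of the 4 genes of mitochondrial biogenesis, 0 were called by edgeR, DESeq2 or limma-voom, and at an unadjusted p under 0.05 there was 1 lower (Nrf1) and 0 higher. Ppargc1a, the coactivator PGC-1alpha, had 2.91, 1.46, 6.60 and 2.97 CPM in PBS and 2.07, 2.38, 1.27 and 3.94 CPM in LPS. PBS replicate 3 stood alone, and the value of -0.53 (SE 0.49) was -0.02 without it and -0.87 without LPS replicate 4. Ppargc1b, its relative, had 1.996 to 2.79 CPM in PBS and 2.61 to 3.04 CPM in LPS (0.28, SE 0.21).

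Nrf1, a transcription factor of nuclear genes for respiration, had 25.4, 25.7, 29.5 and 27.97 CPM in PBS and 24.4, 24.2, 21.0 and 24.3 CPM in LPS. The groups did not overlap, with a gap smaller than the range within PBS, and the value of -0.21 (SE 0.09) was not called. Gabpa, the DNA-binding subunit of GABP, had 46.8 to 50.8 CPM in PBS and 46.1 to 65.2 CPM in LPS (0.12, SE 0.11), where LPS replicate 3 was the highest. The span of Gabpa overlaps that of Atp5pf in RefSeq. In all, 7 of the 24 nuclear members overlap another protein-coding gene there, and since the strand setting is not given, reads of such partners could not be told apart.

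**Figure D4:**
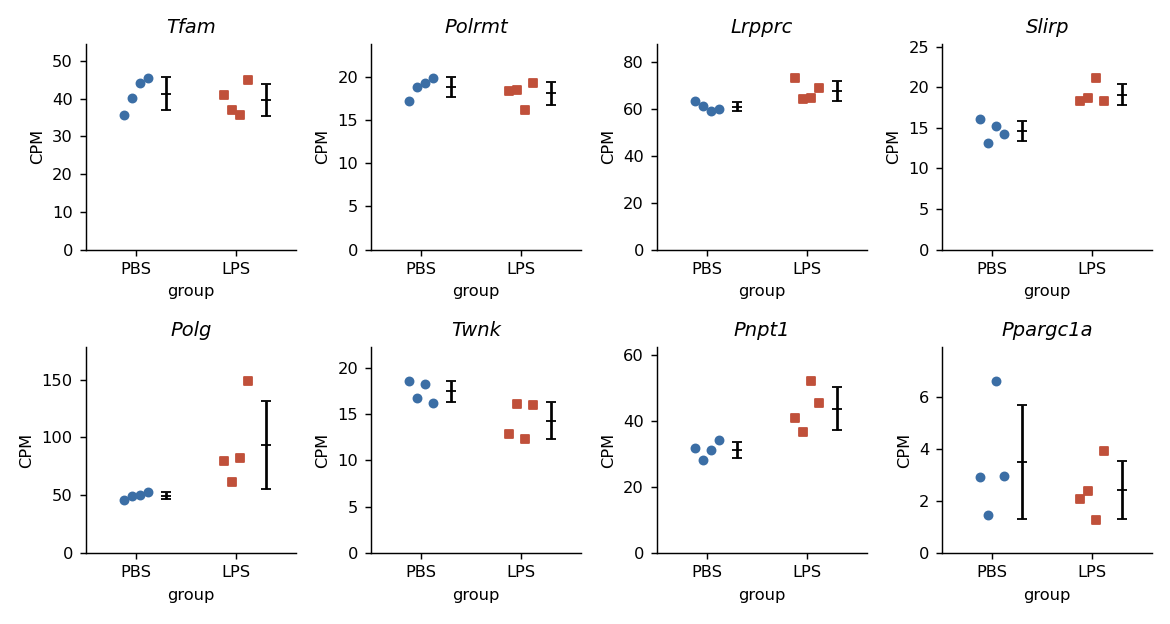
CPM (y axes, each from 0) of 8 nuclear members in the 4 PBS (circles) and 4 LPS libraries (squares), with mean ± SD as bars. Polg, Pnpt1 and Slirp are higher in all LPS libraries, Tfam and Polrmt overlap between the groups, and Ppargc1a is spread in both.

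Promoters are printed for the 2 called nuclear members with the largest change, Polg and Pnpt1, to show the stretch from 250 bases before to 50 bases after the gene start. They come from RefSeq on build GRCr8, 5′ to 3′ on the gene's strand, and were matched by symbol (22 of 24 nuclear members had an entry, and Mterf3 and Mterf4 had none). The region of Polg is chr1:142808789-142809088 on the minus strand and that of Pnpt1 is chr14:107078236-107078535 on the plus strand. Capitals mark matches to 3 motifs searched on both strands. These were the core of the NRF1 motif (GCGCANGC), the core of the GABP motif (CCGGAAGT) and the core of the interferon-stimulated response element (GAAANNGAA).
Polg: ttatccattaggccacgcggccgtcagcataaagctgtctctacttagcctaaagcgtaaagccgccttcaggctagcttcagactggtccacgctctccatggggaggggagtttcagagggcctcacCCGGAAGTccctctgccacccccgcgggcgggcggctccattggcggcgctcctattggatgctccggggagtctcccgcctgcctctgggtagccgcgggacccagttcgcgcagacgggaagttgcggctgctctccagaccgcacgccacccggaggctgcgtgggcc
Pnpt1: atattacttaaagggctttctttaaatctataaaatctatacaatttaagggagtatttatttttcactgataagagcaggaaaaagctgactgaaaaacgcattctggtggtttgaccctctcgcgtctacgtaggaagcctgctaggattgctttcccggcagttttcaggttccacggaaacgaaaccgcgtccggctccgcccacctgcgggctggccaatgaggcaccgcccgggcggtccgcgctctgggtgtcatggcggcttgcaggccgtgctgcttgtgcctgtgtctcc

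The promoter of Polg held 1 match to the GABP core, at base 130 of the printed stretch, and that of Pnpt1 held 0 matches to the 3 motifs. Among the 22 members the GABP core was found in 5 (Fastkd5, Mterf1, Polg, Tefm and Tfam), or 22.7%, and in 3.81% of the 33469 RefSeq promoters of this length. The NRF1 core was found in 4 (Mtpap, Polrmt, Ssbp1 and Tfb2m), or 18.2%, and in 8.98% of all. The interferon core was found in 0 of the 22 and in 9.71% of all. A match describes letters in this window and is not a binding site. Only exact matches were counted, so a lack of matches does not show that a site is absent.

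Lists of 303 tested genes linked to the organelle, outside the members, were chosen by function. Of these, 27 were higher (8.91%) and 7 lower (2.31%). The 27 include 4 of 10 genes known from responses to LPS and 7 of 10 linked to nucleic acid sensing. All the lists, those 2 among them, were chosen with earlier results of these libraries known. Of all genes tested 9.49% were higher and 7.45% lower, and the counts of single lists stand against the same shares. The pooled higher share, with those 2 lists in it, lay near that of all genes. With PBS 1 and LPS 2 left out together, 18 of the pooled genes were higher and 2 lower. Of the genes named from all the lists, Ndufs8, Ndufv3, Cox6a2, Exog, Primpol, Ak3, Ak4, Prkag2, Tbk1 and Mfn2 were then not called. Of 80 nuclear subunits of complexes I to V, 2 were higher and 1 lower, with a median log2 fold change of 0.02. Their summed level was 6698 to 7604 CPM in PBS and 7027 to 7298 CPM in LPS, and the LPS range lay inside the PBS range. The summed CPM of the 13 mitochondrial genes over that of the nuclear subunits was 10.5, 10.2, 8.65 and 8.06 in PBS and 7.02, 6.11, 6.30 and 6.62 in LPS, with no overlap.

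By complex, 1 of 37 nuclear complex I subunits was higher (Ndufs8, 0.23, SE 0.06, adjusted p = 0.041) and 1 lower (Ndufv3, -0.34, SE 0.07, adjusted p = 0.0151). The call of Ndufv3 held in each fit that left out 1 library and ended with PBS 1 and LPS 2 left out together. The call of Ndufs8 was lost in 7 of the 8 fits that left out a library, all but that without PBS replicate 1. It was also lost with the replicate block, with upper-quartile scaling and with no filter on low counts. Of 14 complex IV subunits 1 was higher, Cox6a2, an isoform of heart and skeletal muscle (1.82, SE 0.46, adjusted p = 0.0289). Its level was low, at 0.323 ± 0.138 CPM in PBS and 1.15 ± 0.455 CPM in LPS. The call of Cox6a2 was lost in 6 of the 8 fits, all but those without PBS replicate 1 or LPS replicate 1, and with the replicate block. With a filter of at least 1 CPM in 4 libraries, 0 complex IV subunits were called higher. None of 4 complex II, 9 complex III and 16 complex V subunits was called by edgeR, DESeq2 or limma-voom, and at an unadjusted p under 0.05 there was 1 complex V gene higher and 0 other.

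**Figure D5:**
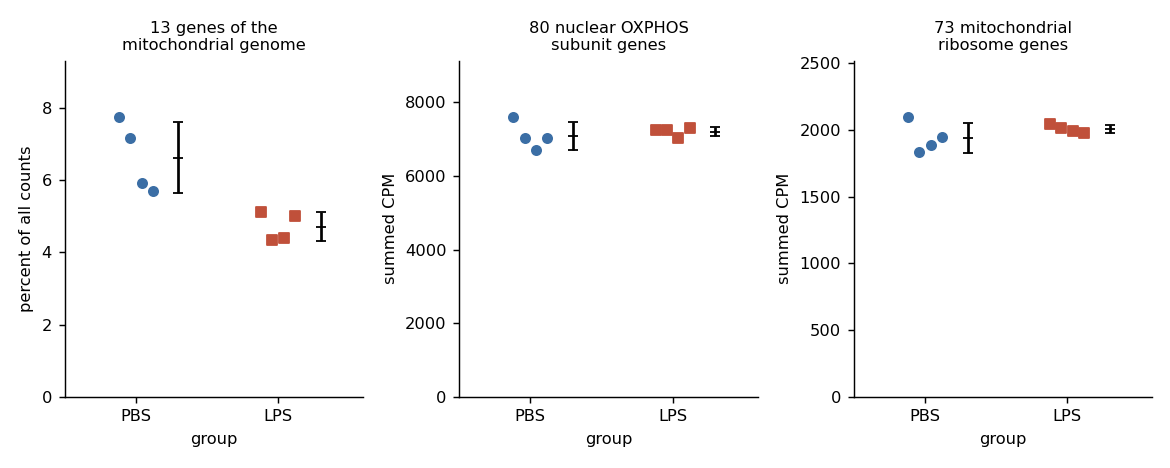
Percent of all counts from the 13 mitochondrial protein genes (left) and summed CPM of 80 nuclear OXPHOS subunits (middle) and 73 mitochondrial ribosome genes (right) in the PBS (circles) and LPS (squares) libraries, with mean ± SD. The groups are apart on the left, at 5.69% or more against 5.11% or less, and overlap in the other panels.

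Of 71 tested genes of the mitochondrial ribosome, which translates these 13 messengers, 4 were higher and 0 lower, with a median of 0.09. Before adjustment these were 12 and 2 with p under 0.05, with DESeq2 9 and 2, and with limma-voom 4 and 0. Higher genes numbered 2 after removal of PBS 2, PBS 3, LPS 2 or LPS 4 and with the replicate block, and 7 after removal of PBS 1. Mrpl49 rose by 0.41 (SE 0.07, adjusted p = 0.00598) and Mrpl32 by 0.44 (SE 0.08, adjusted p = 0.00646). Of 14 translation factors of the organelle and 16 genes of complex IV assembly, 0 were called by edgeR or limma-voom. At an unadjusted p under 0.05, 3 translation factors were higher and 2 assembly genes lower, and DESeq2 called 2 and 2 of these lists.

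Of 23 other genes that act on RNA of the organelle 1 was higher and 0 lower (3 and 0 at an unadjusted p under 0.05, 2 and 0 with DESeq2, 1 and 0 with limma-voom), with a median of 0.06. It was Rpusd3, a pseudouridine synthase of ribosomal RNA (0.78, SE 0.20, adjusted p = 0.0297), which was not called after removal of PBS 2, PBS 3, PBS 4 or LPS 3 or with the replicate block. Of 10 DNA genes 2 were higher and 1 lower. The nuclease Exog (0.57, SE 0.14, adjusted p = 0.0267) and the primase-polymerase Primpol (0.70, SE 0.19, adjusted p = 0.0374) rose, and at least 1 of these calls ended after removal of each of the 8 libraries in turn and with the replicate block. The lower call also ended, except after removal of PBS 1. With no filter on low counts, Primpol was not called.

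Of 11 genes of nucleotide supply 3 were higher and 0 lower (4 and 0 at an unadjusted p under 0.05 and with DESeq2, 2 and 0 with limma-voom). They included the adenylate kinases Ak3 (0.43, SE 0.10, adjusted p = 0.0225) and Ak4 (2.09, SE 0.55, adjusted p = 0.0337). Removal of PBS 2 or LPS 3 left 0 of these calls, and removal of PBS 1 left 2. Removal of PBS 3, PBS 4, LPS 1 or LPS 4 left 1, as did the replicate block and removal of PBS 1 and LPS 2 together. Ak4 was not called with limma-voom or with no filter on low counts.

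Of 18 coregulators of biogenesis 1 was higher and 3 lower, with a median of -0.06. Esrrg, an orphan nuclear receptor that works with PGC-1alpha, stood at 3.75 ± 2.02 CPM in PBS and 12.7 ± 2.898 CPM in LPS (SD, n = 4 each). It rose by 1.77 on the log2 scale (SE 0.39, adjusted p = 0.0187), and removal of PBS 2 ended this call. Prkag2, a regulatory subunit of the energy sensor AMPK, fell by 0.72 (SE 0.16, adjusted p = 0.0183), and removal of PBS 3, or of PBS 1 and LPS 2 together, ended this call. The lower genes numbered 1 after removal of PBS 2 or of that pair and 2 after removal of PBS 3, LPS 2 or LPS 3 or with the replicate block.

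Of 14 markers of organelle mass, such as the outer membrane channel Vdac1 and citrate synthase Cs, 0 were called by edgeR or limma-voom, with a median of 0.03. With p under 0.05 before adjustment, 2 were higher and 0 lower. DESeq2 called 1 higher and 0 lower, as did edgeR without PBS replicate 1. Their summed level was 1524 to 1770 CPM in PBS and 1594 to 1703 CPM in LPS. Of 10 genes of fusion and fission 1 was lower and 0 higher (1 higher at an unadjusted p under 0.05 and with DESeq2, 0 with limma-voom). It was Mfn2, an outer membrane fusion protein (-0.24, SE 0.07, adjusted p = 0.047). Mfn2 was not called in a fit of 7 libraries, whichever was left out, with the replicate block or with no filter on low counts.

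Of 12 mitophagy genes 2 were higher and 1 lower. The receptor Optn had 46.9 ± 6.39 CPM in PBS and 78.9 ± 9.36 CPM in LPS (SD, n = 4 each), a rise of 0.75 on the log2 scale (SE 0.12, adjusted p = 0.00491), and the kinase Tbk1, which phosphorylates it, rose by 0.38 (SE 0.09, adjusted p = 0.023). Removal of PBS 2, LPS 3 or LPS 4, or of PBS 1 and LPS 2 together, ended the call of Tbk1, and removal of PBS 2, PBS 3, LPS 1 or LPS 2, or the replicate block, ended the lower call. Of 6 proteases of quality control 1 was higher, Htra2 of the intermembrane space (0.55, SE 0.10, adjusted p = 0.0093), and 0 were lower, also at an unadjusted p under 0.05, with DESeq2 and with limma-voom.

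Of 10 mitochondrial genes known from responses to LPS, 4 were higher and 0 lower, also at an unadjusted p under 0.05, with DESeq2 and with limma-voom. Sod2, the manganese superoxide dismutase of the matrix, rose from 119, 111, 109 and 151 CPM in PBS to 1211, 976, 2421 and 1191 CPM in LPS (3.56, SE 0.30, adjusted p = 0.000481). Acod1, which makes itaconate, rose by 3.97 (SE 0.55, adjusted p = 0.00279). Of 10 tested genes linked to the sensing of nucleic acids, such as RNA or DNA that has left the organelle, 7 were higher and 0 lower. With p under 0.05 before adjustment they were 9 and 1, with DESeq2 8 and 1, and with limma-voom 7 and 0. Zbp1 rose by 1.61 (SE 0.16, adjusted p = 0.000814) and Sting1 by 1.09 (SE 0.11, adjusted p = 0.000955). Both lists, like the others, were chosen with earlier results of these libraries known.

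Markers of some cell types differed between the groups, and those of others were not called. Of 6 smooth muscle markers 4 were lower and 0 higher, with a summed level of 3777 to 9616 CPM in PBS and 3184 to 4763 CPM in LPS. Among squamous epithelium markers 1 of 3 tested was lower, with summed levels of 4636 to 8494 CPM and 3002 to 3934 CPM. It was Krt13, at a mean of 2197 CPM in PBS and 94.9 CPM in LPS. Krt5 and Krt14 were not called (log2 fold changes of -0.30 and 0.12), and in each the groups overlapped. Among red cell markers 3 of 4 tested were lower, with 505 to 1617 CPM and 84.4 to 474 CPM. Of 3 Schwann cell markers 2 were lower (79.9 to 120 and 8.09 to 44.5 CPM). Of 2 tested skeletal muscle markers 1 was lower, Acta1 (log2 fold change -1.78), and Tnnt3 was not called (0.20). The summed level of that list was 67.8 to 261 and 37.9 to 83.2 CPM, most of it Acta1 (63.9 to 254 and 33.7 to 78.8 CPM). Myh1 and Myh4 were near 0 in all libraries. All 5 neutrophil markers were higher (32.9 to 52.2 and 313 to 1489 CPM), as were 4 of 5 macrophage markers (355 to 456 and 864 to 1349 CPM) and 3 of 5 fibroblast markers (8718 to 10824.5 and 11952 to 19232 CPM). None of 4 columnar epithelium markers (2238 to 2905 and 1732 to 2233 CPM), 4 endothelium markers (228 to 516 and 254 to 428 CPM) and 1 tested brown fat marker (8.18 to 13.6 and 5.66 to 12.2 CPM) was called.

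PBS replicate 4 held 3777 CPM of the smooth muscle markers, within the LPS range, and 5.69% of mitochondrial counts, above each LPS library and below each other PBS library. PBS replicate 3, with 8604 CPM of those markers, had a similar 5.90%. The part of the cell types in the mitochondrial values was not tested. In pieces of tissue, fewer cells of a type that is rich in mitochondria and less mitochondrial RNA per cell cannot be told apart.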

How the data were processed

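RNA was extracted with TRIzol and libraries were made from total RNA with the VAHTS Universal V6 kit, per the labels' protocols. Values are raw counts by gene symbol, 1 column per library, as the authors deposited them. Tools listed in the submitters' processing notes are HTSeq, HISAT2, fastp and R 3.2.0, with the build mRatBN7.2 and no role for any. Annotation, strand setting and the treatment of reads that also match nuclear copies of mitochondrial DNA are not stated in the sources used here.

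Columns were matched to samples by library name. In the LPS group these names skip a number before the last library. Replicate numbers, also those of the replicate block, are those of the sample titles. Genes were kept by filterByExpr, scaled by TMM and fitted with edgeR 4.0.16 (R 4.3.3), robust quasi-likelihood F tests over 8 libraries, no covariate, with Benjamini-Hochberg adjusted p over the whole filtered table; calls are at an adjusted p under 0.05. The SE is the log2 fold change divided by the square root of F. The fit was also run on simulated data, and no call here rests on that run. With no record of separate extraction or pooling, p-values measure the spread between these libraries. Members and lists were chosen with earlier results of these data known. All members are named. In each other list the 2 called genes with the lowest adjusted p are named, except that Vdac1, Cs and genes of the overlap and marker checks are named as examples. Alternatives were RLE and upper-quartile scaling, library sizes without the mitochondrial genome, other filters, DESeq2 1.42.0, limma-voom 3.58.1, each library left out, and the replicate block. The alternative without both PBS replicate 1 and LPS replicate 2 was added after seeing the data. Lengths of the mitochondrial genes were not used here, so levels are not compared between genes.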

Additional observations from a re-analysis of the deposited data

Results flagged for a closer look

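In 4 of 74 combinations of member and group, 1 library lay apart from the other 3 by more than Dixon's critical value allows; chance alone flags about 5% of groups. ATP8 was at 253 CPM in LPS replicate 3 and at 217 to 222 CPM in the other LPS libraries. Slirp was at 21.1 CPM in LPS replicate 3 and at 18.3 to 18.6 CPM in the others. Nrf1 was at 21.0 CPM in LPS replicate 3 and at 24.2 to 24.4 CPM in the others. Tfb2m was at 20.9 CPM in LPS replicate 1 and at 25.0 to 25.3 CPM in the others. LPS replicate 3 is thus the library set apart in 3 of these 4 cases.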

How the results depend on the processing

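The ratio of the mean mitochondrial share in LPS to that in PBS was 0.71, and 0.679 to 0.753 with 1 library left out. The 13 mitochondrial genes were lower in 9 cases with RLE scaling, upper-quartile scaling, library sizes without the mitochondrial genome, both other filters and limma-voom, in 13 with DESeq2, in 4 to 9 with 1 library left out and in 4 with PBS 1 and LPS 2 left out together. The 3 higher nuclear members were 0 to 2 with 1 library left out, 2 with PBS 1 and LPS 2 left out together, and 3 under those scalings, filters and tools. Of the other organelle genes, 43 were higher and 15 lower with DESeq2, 15 to 27 and 2 to 6 with 1 library left out, and 18 and 2 with PBS 1 and LPS 2 left out together. With RLE scaling or library sizes without the mitochondrial genome they were 27 and 7. Upper-quartile scaling gave 26 and 7, as did at least 1 CPM in 4 libraries. No filter on low counts gave 22 and 5, and limma-voom 26 and 8. Over all genes tested, DESeq2 called 2099 higher and 2089 lower, against 1529 and 1200. The cause of these differences was not tested. Deviations of same-numbered PBS and LPS libraries had correlations of -0.13, -0.18, -0.09 and 0.21. Libraries of unlike number had correlations of -0.21 to 0.24. With so few libraries per group these values cannot show whether the numbers pair the libraries. With the replicate block 9 mitochondrial genes were lower, 2 nuclear members higher, and 19 other organelle genes higher and 3 lower. Of 629 values of single members under all alternatives, 39 lost and 6 gained a call and 0 reversed a call. Only the 9 mitochondrial genes and 3 nuclear members called in the main fit could lose a call. Out of 17 alternatives each, Slirp lost its call in 9, ATP6 in 8, and ND1 and Polg in 6. ND2 and Pnpt1 lost it in 3, ND5 and ATP8 in 2, and ND3, ND4, ND4L and CYTB in 0. Depth limits ND6 most among the mitochondrial genes, with 232 to 724 counts per library.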
